A study of Mus musculus with 24 samples.

Results

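The experiment described here is the reactivation of Th1 cells that had received no drug. T helper 1 (Th1) cells are CD4+ T cells, here differentiated in vitro from naive cells of female C57BL/6 mice, and the unstimulated or reactivated cells carried only DMSO, the solvent of the study's inhibitors. The labels give DMSO for 6 or 24 hr, and each time holds 1 array of unstimulated and 1 of reactivated cells. These 4 arrays, of 24 in the series, were taken by cell type, treatment, state and time in the labels alone. On every array the Th1 RNA carried the dye Cy3, and the reference, naive CD4+CD62L+CD25-CD44lo T cells of lymph nodes and spleens, carried Cy5. The dyes were not swapped. Values are log2 Cy3/Cy5 ratios unless another scale is named, and a change is the reactivated minus the unstimulated array of a pair. The agent and the length of reactivation are not given in the labels of these arrays. The 6 hr pair lay on one slide and the 24 hr pair on another, so time and slide cannot be told apart.

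A T cell is activated when its receptor binds antigen. The labels do not say whether the reactivation used here acted through the receptor. Calcium entry frees NFAT to enter the nucleus, while kinase cascades switch on AP-1 and NF-kB, and these factors together drive cytokine genes such as Il2. Th1 cells are defined by the transcription factor T-bet (Tbx21) and by interferon gamma (Ifng), which arms macrophages. Receptor signalling also raises Myc and cell growth, and it shuts down the genes of quiescence and lymph node homing that Foxo factors and Klf2 maintain.

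The 4 arrays were of like quality, with 48.8% to 50.8% of probes well above background in Cy3 and no saturated Cy3 spot. All 8 T helper markers checked were well above background on all 4 arrays, with a summed Cy3 intensity of 123490 to 248490. Of 6 B cell markers 4 or 5 were above background, with a summed intensity of 1246 to 1640, and of 6 CD8 T and NK cell markers 4 were, at 1959 to 2616, while Ncr1 and Klrb1c were above it on none. Of 9 myeloid and dendritic cell markers 5 or 6 were above background, at 56708 to 75402. Most of that signal came from Siglech and Itgam, whose probes were also bright in naive cells, and Lyz2 and Adgre1 were above background on no array. The erythroid and stromal markers reached 355 to 457, with 2 of 4 measured above background. Between states, the T helper markers had a median change of -0.46 at 6 hr and -0.59 at 24 hr, and in the limma model of both pairs 4 of the 8 were called lower and 2 higher, where 25.4% and 19.8% of all genes were. No marker list of other cells had a median change beyond 0.40 in size, and of their 15 tested members Eomes was past 2-fold upward and Cd79b past 2-fold downward in both pairs. In bulk RNA, fewer cells of a type and less RNA per cell cannot be told apart.

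Each pair was 2 single arrays, so its change has no replicate check, and the pairs served as the only repeats of each other. Of 12599 genes tested, 859 were higher by at least 2-fold in both pairs (6.82%) and 904 were lower by at least 2-fold in both (7.18%). With spike-in centring in place of loess these counts were 1011 and 560. In the 6 hr pair alone 1057 genes were past 2-fold upward and 1067 downward, and in the 24 hr pair 1235 and 1529. Only Pde2a was past 2-fold upward at 6 hr and downward at 24 hr, and only Bcl6 the other way. Across genes, which are not independent replicates and share the arrays of their pair, the changes of the pairs had a Pearson correlation of 0.910 and a Spearman correlation of 0.874, and 82.7% had the same sign. In limma's model with the pair as a block, 2492 genes were called higher (19.8%) and 3203 lower (25.4%) at a Benjamini-Hochberg adjusted p below 0.05. All 859 and all 904 genes that moved past 2-fold in both pairs were among these calls. The calls use the same arrays and changes, so this overlap is no separate check. Nothing in the labels says that the pairs came from separate cultures, so these p-values rest on the spread between these pairs of arrays, which may be technical. That spread also holds any difference between 6 and 24 hr. The model shares the variance over genes, with 1 residual and 5.42 prior degrees of freedom. An SE is therefore not the spread of that gene alone.

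**Figure D1:**
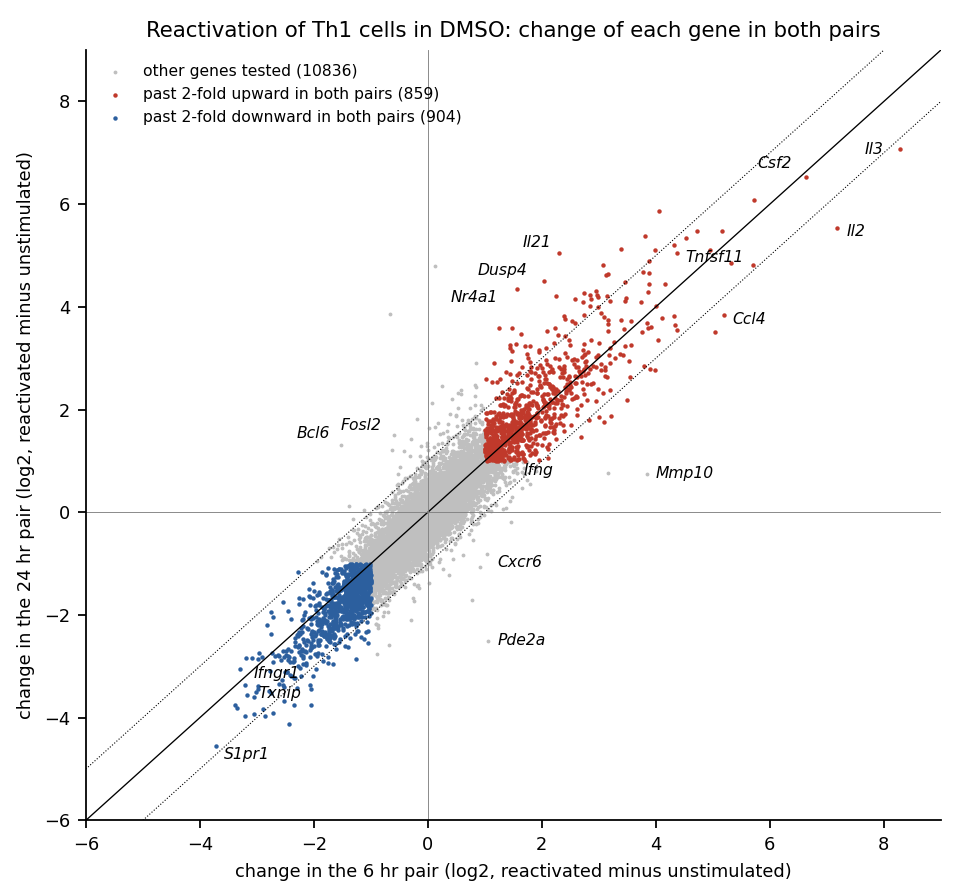
Change of each of 12599 genes in the 6 hr pair (horizontal axis) and the 24 hr pair (vertical axis), both log2, 1 point a gene. The solid line marks equal changes and the dotted lines a 2-fold difference. Red points are the 859 genes past 2-fold upward in both pairs and blue points the 904 past 2-fold downward, and most lie near the solid line, while Nr4a1, Dusp4, Il21, Bcl6, Pde2a and Mmp10 lie off it.

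Il3, Csf2 and Il2 were among the 10 genes that rose most in both pairs, a ranking that passed over 1 gene of uncertain name. Il3, a growth factor of blood progenitors and basophils, had ratios of 0.40 and 1.29 in the unstimulated cells of 6 and 24 hr and 8.68 and 8.36 in the reactivated cells. Its change was 8.28 at 6 hr and 7.07 at 24 hr, with a limma mean of 7.67 ± 0.28 (SE, 2 pairs, adjusted p = 0.00011). Csf2, which encodes GM-CSF, stood at 0.87 and 1.22 before and at 7.51 and 7.75 after reactivation. It rose by 6.58 ± 0.15 (adjusted p = 3.8e-05, limma). Il2, the autocrine T cell growth factor, stood at 0.31 and 1.88 in unstimulated and at 7.50 and 7.43 in reactivated cells. Both reactivated values of each gene lay above both unstimulated values, which the choice of genes by their change fixes. The change of Il2 was 7.18 at 6 hr and 5.55 at 24 hr. By Cy3 alone, after between-array scaling, the changes were larger, and the Cy5 reference rose too. They were 9.61 and 10.30 for Il2, so that the order of the pairs turned, 10.58 and 10.67 for Il3 and 7.25 and 8.37 for Csf2.

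Promoters of these genes are shown because Il2, Il3 and Csf2 were the cytokine genes with the highest change in both pairs. Each stretch is 300 bases of RefSeq around the start of the gene, most of them before it, 5′ to 3′ on the gene's strand (build GRCm38.p6). Capitals mark the NFAT core GGAAA or its reverse complement. Il2 lies at chr3:37125905-37126204, Il3 at chr11:54267230-54267529 and Csf2 at chr11:54249850-54250149, each on the minus strand.
Il2 promoter: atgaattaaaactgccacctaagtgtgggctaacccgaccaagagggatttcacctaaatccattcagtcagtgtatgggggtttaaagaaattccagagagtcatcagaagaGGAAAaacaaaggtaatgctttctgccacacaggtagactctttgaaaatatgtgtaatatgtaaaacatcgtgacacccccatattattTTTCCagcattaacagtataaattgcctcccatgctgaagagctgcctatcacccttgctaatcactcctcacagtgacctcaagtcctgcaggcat
Il3 promoter: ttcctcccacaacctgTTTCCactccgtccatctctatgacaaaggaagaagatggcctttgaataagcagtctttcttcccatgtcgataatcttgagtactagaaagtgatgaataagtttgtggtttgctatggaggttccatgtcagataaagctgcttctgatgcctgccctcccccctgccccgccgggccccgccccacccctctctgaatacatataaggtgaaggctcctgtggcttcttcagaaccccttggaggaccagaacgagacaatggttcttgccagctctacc
Csf2 promoter: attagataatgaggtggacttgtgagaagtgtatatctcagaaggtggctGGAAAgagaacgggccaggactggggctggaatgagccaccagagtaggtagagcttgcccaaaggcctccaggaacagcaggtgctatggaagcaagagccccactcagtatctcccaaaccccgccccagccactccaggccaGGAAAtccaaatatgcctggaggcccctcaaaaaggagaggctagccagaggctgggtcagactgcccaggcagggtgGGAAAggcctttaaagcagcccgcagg

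Il2 held 2 NFAT cores, Il3 held 1 and Csf2 held 3. No exact match to the patterns of an AP-1 site (TGANTCA), NF-kB site, CRE (TGACGTCA) or T-box (AGGTGTGA) lay in these windows on either strand. The NF-kB pattern was GGGRNNYYCC, with R for A or G and Y for C or T. Sites that depart from these letters were not searched for. Of the 10 genes that rose most in both pairs 9 had a RefSeq promoter, and 7 of the 9 held the NFAT core, which 61.3% of all 32851 RefSeq promoters and 63.9% of 10103 tested genes with a promoter also held. An AP-1 site and an NF-kB site lay in the Ccl9 promoter only, against 7.81% and 8.46% of all promoters, and the NF-kB site there overlaps an NFAT core. None of the 9 held a CRE or a T-box, against 1.79% and 1.28% of all promoters. A match of letters is a description of the window and not a binding site.

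Of the other 7 of the 10 genes that rose most, Bdh2, a short-chain dehydrogenase, went from 0.64 and 0.35 to 6.36 and 6.44. Crtam, an adhesion receptor of activated T and NK cells, went from -0.53 and 0.37 to 5.17 and 5.18. Tnfsf11, the ligand RANKL that acts on osteoclasts and dendritic cells, went from 1.12 and 0.65 to 5.48 and 5.70. Probes of Idi2, an isopentenyl diphosphate isomerase, and of Mst1r, the receptor of macrophage stimulating protein, were not well above background on either unstimulated array, and those of Il31, an itch cytokine, and the chemokine gene Ccl9 were not on the 6 hr one. Their changes are therefore lower bounds. These bounds come from Cy3 levels, which rest on the between-array scaling and not on the reference. By them reactivated Idi2 was at least 27.9-fold and 38.6-fold higher at 6 and 24 hr and Mst1r at least 22.8-fold and 58.9-fold. At 6 hr Il31 was at least 43.7-fold and Ccl9 at least 46.3-fold higher.

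**Figure D2:**
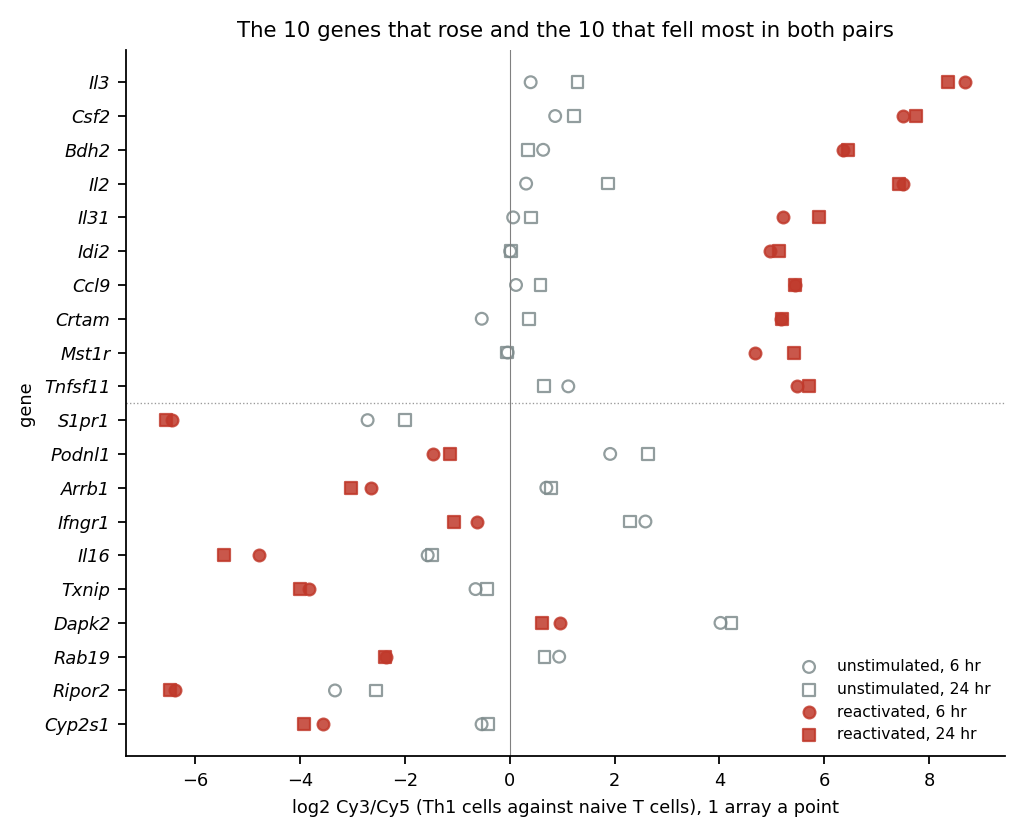
Log2 Cy3/Cy5 ratio on each of the 4 arrays (horizontal axis) for the 10 genes that rose most and the 10 that fell most in both pairs. Open grey symbols are unstimulated and filled red symbols reactivated cells, circles 6 hr and squares 24 hr. The genes were chosen for this separation, which 32.4% of all tested genes showed upward and 39.0% downward, and values run from 8.68 for Il3 to -6.55 for S1pr1.

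The 10 genes that fell most in both pairs had varied roles. S1pr1, the receptor that lets T cells leave lymph nodes, stood at -2.71 and -2.001 in unstimulated cells, below naive cells, and at -6.43 and -6.55 after reactivation. It fell by 4.14 ± 0.22 on the log2 scale (SE, 2 pairs, limma adjusted p = 0.00013). Ifngr1, the ligand-binding chain of the interferon gamma receptor, stood at 2.59 and 2.29 above naive cells and went to -0.63 and -1.06, so that it crossed the naive level. Dapk2, a death-associated kinase, started highest of the 10, at 4.02 and 4.23, and reached 0.96 and 0.62. Txnip, which restrains glucose uptake, went from -0.65 and -0.44 to -3.82 and -4.003. Il16, a chemoattractant of CD4+ cells, went from -1.56 and -1.48 to -4.78 and -5.45. Podnl1, Arrb1 (an arrestin that ends receptor signalling), Rab19, Ripor2 and Cyp2s1 fell by 3.17 to 3.58 in the mean over both pairs. The naive reference of these 10 genes moved by 0.33 or less in either pair.

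Most cytokine genes tested rose. Of 28 listed, 25 were tested, 14 were past 2-fold upward in both pairs and 18 were called higher, where 6.82% and 19.8% of all genes were. Il16 alone was called lower, as were 25.4% of all genes. Their median change was 1.44 at 6 hr and 1.26 at 24 hr, against -0.04 and -0.05 over all genes tested. Areg, an epidermal growth factor receptor ligand, rose from 2.24 and 0.91 to 6.23 and 6.02. Cytokines of other helper lineages rose as well: Il4, the Th2 cytokine, reached 3.07 and 4.496 and was at least 5.88-fold and 14.6-fold higher than in unstimulated cells, where it was not well above background. Il13 reached 3.71 and 4.60, at least 10.6-fold higher at 6 hr by the same bound, and Il17f, a Th17 cytokine, was at least 5.71-fold and 9.35-fold higher. Il10, which dampens inflammation, changed by 2.47 and 3.35. Ifng, the signature Th1 cytokine, was already at 7.15 and 7.08 above naive cells before reactivation and reached 8.59 and 8.33. Its ratio rose by 1.34 ± 0.15 (adjusted p = 0.00094, limma), a value that Cy3 alone puts far higher, as described for the brightest genes below.

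Of 12 chemokine genes tested, 10 were called higher, 1 (Ccl27a) lower, and 6 were past 2-fold upward in both pairs, where 19.8% and 25.4% of all genes were called and 6.82% were past 2-fold upward. Ccl4, an inflammatory chemokine, stood at 4.90 and 5.78 before and at 10.09 and 9.62 after reactivation. Xcl1, which attracts cross-presenting dendritic cells, changed by 3.49 and 2.18 and Ccl5, another inflammatory chemokine, by 2.21 and 1.54. By Cy3 alone the changes were 6.49 and 6.72 for Xcl1 and 3.94 and 4.20 for Ccl5, while their Cy5 reference changed by 1.73 to 4.54. Among 15 ligands of the tumour necrosis factor family, 9 were past 2-fold upward and 1 downward in both pairs, where 6.82% and 7.18% of all genes were. The share downward was no more than that of all genes. Tnf changed by 3.46 and 3.24 by ratio and by 4.46 and 6.21 by Cy3 alone, with Cy5 changes of 0.996 and 2.96. Lta changed by 2.69 and 2.08 and Tnfsf8 (CD30 ligand) by 2.96 and 4.24. Cd40lg, the helper signal to B cells and dendritic cells, was at least 2.88-fold and 6.29-fold higher, since it was not well above background in unstimulated cells. Fasl, which triggers cell death, changed by 0.83 and 2.27. Ltb, needed for lymphoid tissue structure, moved the other way, from -0.06 and 0.08 to -2.34 and -1.07.

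Of 20 chemokine and homing receptors tested, 8 were past 2-fold downward in both pairs, as were 7.18% of all genes, and none upward, and 11 were called lower and 4 higher, where 25.4% and 19.8% of all genes were. Selplg, the selectin ligand, changed by -2.01 and -3.18, Cxcr4 by -2.74 and -2.37 and S1pr4 by -1.995 and -2.34. Ccr7, which guides T cells into lymph nodes, changed by -1.75 and -2.21. Cxcr3, the Th1 homing receptor, was called higher, with 4.04 and 4.72 before and 4.75 and 5.18 after. Of 25 cytokine receptor chains 12 were called lower and 4 higher, the latter no more than the share of all genes. Besides Ifngr1, the second interferon gamma chain Ifngr2 changed by -1.44 and -1.67, the type I interferon chain Ifnar1 by -1.61 and -2.04 and Il7r, the receptor of a survival cytokine, by -1.23 and -2.01. Il12rb2 and Il18r1, through which Th1 cells sense IL-12 and IL-18, changed by -0.62 and -0.67 and by -1.47 and -1.39. Il1rl1, the receptor of IL-33, went up instead, from 2.42 and 2.48 to 5.51 and 6.29.

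Of 26 costimulatory and inhibitory receptors 11 were called higher and 6 lower, and 6 and 1 were past 2-fold in both pairs, where 19.8% and 25.4% of all genes were called and 6.82% and 7.18% past 2-fold, so that the share called lower was near that of all genes. The inhibitory receptor genes Pdcd1 (PD-1), Cd160 and Havcr2 (TIM-3) changed by 3.39 and 3.75, by 2.50 and 3.25 and by 3.19 and 2.38. Slamf1 changed by 1.91 and 2.80. Ctla4, also an inhibitory receptor, was called lower: it stood at 4.89 and 2.65 and went to 3.22 and 1.97. Cd28, the main costimulator of naive cells, changed by -0.75 and -1.14. Cd69, a classical activation marker, did not pass the test, with changes of -0.20 and 0.69.

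Most transcription factors of the immediate-early response rose. Of 24 Nr4a, Egr and AP-1 genes, all tested, 16 were called higher and none lower, where 19.8% and 25.4% of all genes were, and 11 were past 2-fold upward in both pairs, as were 6.82% of all genes. Their median change was 0.81 at 6 hr and 1.79 at 24 hr. Egr2, which restrains T cell activation, went from 0.32 and -0.15 to 3.70 and 4.98, and Nr4a3, an orphan receptor induced by antigen signalling, from 0.92 and 0.19 to 3.65 and 4.45. Fosl1, an AP-1 subunit, changed by 3.16 at 6 hr and was at least 13.9-fold higher at 24 hr, and Myc, the driver of cell growth, changed by 2.57 and 2.89. The AP-1 subunits Jun, Jund and Batf did not pass the test, with changes between -0.28 and 0.27. Of 24 NF-kB subunits, inhibitors and feedback genes 12 were called higher and 4 lower, against the same shares. Nfkbid, an atypical inhibitor, changed by 2.38 and 3.83 and the subunit gene Nfkb1 by 1.78 and 2.48. Bcl3, an atypical member of the inhibitor family, changed by -1.71 and -1.96.

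Among 13 NFAT and calcineurin genes 4 were called higher and 7 lower, where 19.8% and 25.4% of all genes were. Nfatc1 changed by 1.03 and 1.93 and Nfat5, which responds to osmotic stress, by 1.32 and 1.67. Nfatc2, the NFAT of resting T cells, went the other way, by -0.91 and -2.18. Orai1, the pore of the calcium channel that activates NFAT, changed by 0.83 and 2.09. Of 31 lineage transcription factors 8 were called in each direction, near the shares of all genes, and their median change was -0.15 at 6 hr and 0.11 at 24 hr, a sign at 6 hr that turned with the centring (-0.28 to 0.14 over 6 scalings). Tbx21 stood at 5.41 and 5.55 above naive cells and at 6.11 and 6.35 after, a mean rise of 0.75 ± 0.15 (limma adjusted p = 0.0074). Eomes, its relative, changed by 3.21 and 1.87, Stat5a, which relays IL-2 signals, by 2.39 and 2.79, Irf4, which scales with receptor signal strength, by 1.57 and 2.20 and Twist1, which limits Th1 inflammation, by 1.44 and 3.26. Stat4, which relays IL-12, changed by -1.02 and -0.75, and Gata3, the Th2 factor, did not pass the test (0.19 and 0.71).

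Most interferon-stimulated genes fell while the interferon gamma gene rose. Of 32 interferon-stimulated genes tested, 13 were past 2-fold downward in both pairs and 1 upward, and 22 were called lower and 3 higher. Of all genes 7.18% and 6.82% were past 2-fold and 25.4% and 19.8% were called, so the members past 2-fold upward or called higher were no more than the share of all genes. The median change was -1.01 at 6 hr and -0.91 at 24 hr. The GTPases that attack intracellular pathogens were among the lowest: Gbp4 went from 0.20 and 0.41 to -2.54 and -3.11, Irgm2 from 0.66 and 0.84 to -2.07 and -1.91, Igtp from 1.30 and 1.82 to -1.19 and -0.96 and Gbp5 from 4.21 and 2.83 to 1.75 and 0.90. Factors that relay the signal were called lower too. Stat2 changed by -1.33 and -1.25, Irf9 by -1.21 and -1.13, Irf7 by -1.25 and -0.88 and Irf1, an early target of interferon gamma, by -1.93 and -2.52. Ifih1, the RNA sensor MDA5, was the member past 2-fold upward, with 1.47 and 2.55.

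The change of many interferon-stimulated genes differed between Th1 and Th2 cells. The Th2 DMSO pair lay on the slide of the 6 hr Th1 pair, and its labels disagree on the treatment time. In limma's model over the 6 arrays, the change on reactivation was higher in Th1 than in Th2 cells for 16 of 12938 genes (0.124%) and lower for 69 (0.533%). With 1 Th2 pair nothing measured the spread of Th2 cells, which the model takes to equal that between the Th1 pairs. Of the 16 and 69 genes, 15 and 65 were among the 12599 genes tested above. Of the 32 interferon-stimulated genes 15 were called lower in Th1 cells, and 17 were higher by at least 2-fold in the single Th2 pair, as were 1528 of the 12599 genes. Igtp changed by 1.17 in Th2 cells against -2.50 and -2.78 in Th1 cells (adjusted p = 0.0056, limma), Usp18, a brake on interferon signalling, by 1.87 against -1.72 and -1.58 (adjusted p = 0.0056, limma), and Gbp6 by 1.65 against -2.04 and -2.32 (adjusted p = 0.0056, limma). Irf1 changed by 1.08 in Th2 cells (adjusted p = 0.013 for the difference, limma). Ifng itself changed by 5.55 in Th2 cells and Tbx21 by 4.66, against ratios of 1.44 and 1.25 and of 0.70 and 0.81 in Th1 cells (adjusted p = 0.0056 each, limma), where both were already high before reactivation. By Cy3 alone Ifng changed by 5.54 in Th2 cells and by 5.30 and 5.18 in Th1 cells, while the Cy5 reference of the Th1 pairs changed by 3.86 and 3.93. The Th2 cytokine Il5 reached a ratio of 3.66 in reactivated Th2 cells against 0.46 and 0.68 in reactivated Th1 cells, and Il9 reached 6.15 against 0.46 and 0.54. Neither was well above background in unstimulated Th1 cells, so no fold is given for them. On the other side, Ccl9 changed by 1.56 in Th2 cells against 5.31 and 4.85 in Th1 cells, and Il1rl1 by 0.44 against 3.08 and 3.81. The 5.31 of Ccl9 is a lower bound, since its probe was not well above background on the unstimulated 6 hr Th1 array.

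Ribosome biogenesis genes rose together. All 34 were called higher and 32 were past 2-fold upward in both pairs, where 19.8% and 6.82% of all genes were, with median changes of 2.06 and 2.01, and under 6 scalings 31 or 32 passed. Ppan, a factor of the large subunit, went from -1.72 and -1.34 to 1.55 and 1.99. Polr1b, a subunit of RNA polymerase I that makes ribosomal RNA, went from -1.37 and -0.77 to 2.06 and 2.30, and Rrs1 and Rrp9 changed by 3.10 and 2.82 and by 3.10 and 2.78. Messages of the ribosomal proteins themselves did not follow: of 74 tested, none was past 2-fold in both pairs and 1, Rpl21, was called higher, at 0.41 and 0.57. With the first of its probes by name the mean change of Rpl21 was -0.12. The median of the 74 was -0.08 at 6 hr, with either sign over 6 scalings (-0.35 to 0.06), and 0.22 at 24 hr. Of 23 amino acid transport, serine and integrated stress genes 14 were called higher and 4 lower, the latter no more than the 25.4% of all genes. Shmt1, of one-carbon metabolism, changed by 2.39 and 2.74, and the amino acid carriers Slc1a5, Slc38a1, Slc7a1 and Slc7a5 by 1.31 to 2.28.

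Of 24 glycolysis genes tested, 12 were called lower and 2, among them Hk2 at 0.41 and 0.54, higher, where 25.4% and 19.8% of all genes were. Bnip3, a mitophagy receptor, went from 5.81 and 5.05 to 3.48 and 2.46. Pdk1, which keeps pyruvate out of mitochondria, changed by -1.68 and -2.31, Pfkm by -1.67 and -1.84 and Hk1 by -0.87 and -1.26. Ldha did not pass the test (-0.33 and -0.28). Of 27 cholesterol and fatty acid synthesis genes 8 were called higher and 10 lower, against the same shares. Acly, which supplies acetyl-CoA for lipids, changed by 2.01 and 1.95 and the desaturase gene Scd2 by -2.35 and -2.83.

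Of 26 mitosis genes 15 were called lower and none higher, and of 31 DNA replication genes 13 were lower and 1 higher, where 25.4% and 19.8% of all genes were. Mki67, the proliferation marker, stood at 6.15 and 6.34 before and 5.65 and 5.22 after, Cdc25b changed by -1.57 and -2.24, Nusap1 by -1.18 and -1.85 and Cdt1 by -1.14 and -0.98. The D cyclins moved apart: Ccnd2 changed by 2.23 and 2.13 and Ccnd3 by -2.06 and -3.35. Of 23 quiescence genes 13 were called lower and 4 higher, and 9 and 3 were past 2-fold in both pairs, as were 7.18% and 6.82% of all genes. Klf2, which maintains S1pr1, went from -2.73 and -1.78 to -5.06 and -5.01, and Cdkn1b, a cell cycle inhibitor, from 0.13 and -0.33 to -2.56 and -3.14. Tsc22d3 and Pik3ip1, an inhibitor of PI3 kinase, changed by -2.41 and -3.19 and by -2.91 and -2.82, and Tcf7, a factor of naive and memory cells, by -1.63 and -2.57.

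Of 13 Bcl2 family genes 4 were called higher and 6 lower, where 19.8% and 25.4% of all genes were. The survival genes Bcl2l1 and Bcl2a1d changed by 1.76 and 2.06 and by 2.29 and 2.84, and the death genes Bbc3 and Bad by -2.58 and -2.87 and by -1.42 and -1.98, while Bid, also pro-death, changed by 1.25 and 1.38. Bcl2a1d has near-identical copies, and its probe may read them too. Of 24 T cell receptor and proximal signalling genes 12 were called lower and 6 higher, the latter near the share of all genes. The phosphatase gene Ptpn6 changed by -1.93 and -2.75, Rasgrp1 by -1.21 and -2.05, Cd3d by -0.78 and -0.73 and Cd4 by -0.74 and -1.17, and the negative regulator Ubash3b by 3.04 and 3.88. Of 13 MAPK phosphatase and Sprouty genes, which brake the ERK pathway, 9 were called higher and 2 lower, with Spry1 at 4.06 and 5.86 and Dusp2 at 2.57 and 2.98. Of 11 Socs, Cish and Pim genes 5 were called higher and 2 lower, the latter no more than the share of all genes, and none was past 2-fold in both pairs, with Cish at 1.37 and 0.94 and Pim3 at 0.94 and 1.98. Of 17 granule and killing genes 6 were called higher and 3 lower, the latter no more than the share of all genes. Serpinb6b, a protease inhibitor, changed by 3.88 and 4.45, Prf1 (perforin) by 1.42 and 1.19 and Nkg7 by 1.67 and 1.05. Gzma and Gzmb, the granzyme genes already at 3.69 to 6.22 above naive cells, did not pass the test.

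**Figure D3:**
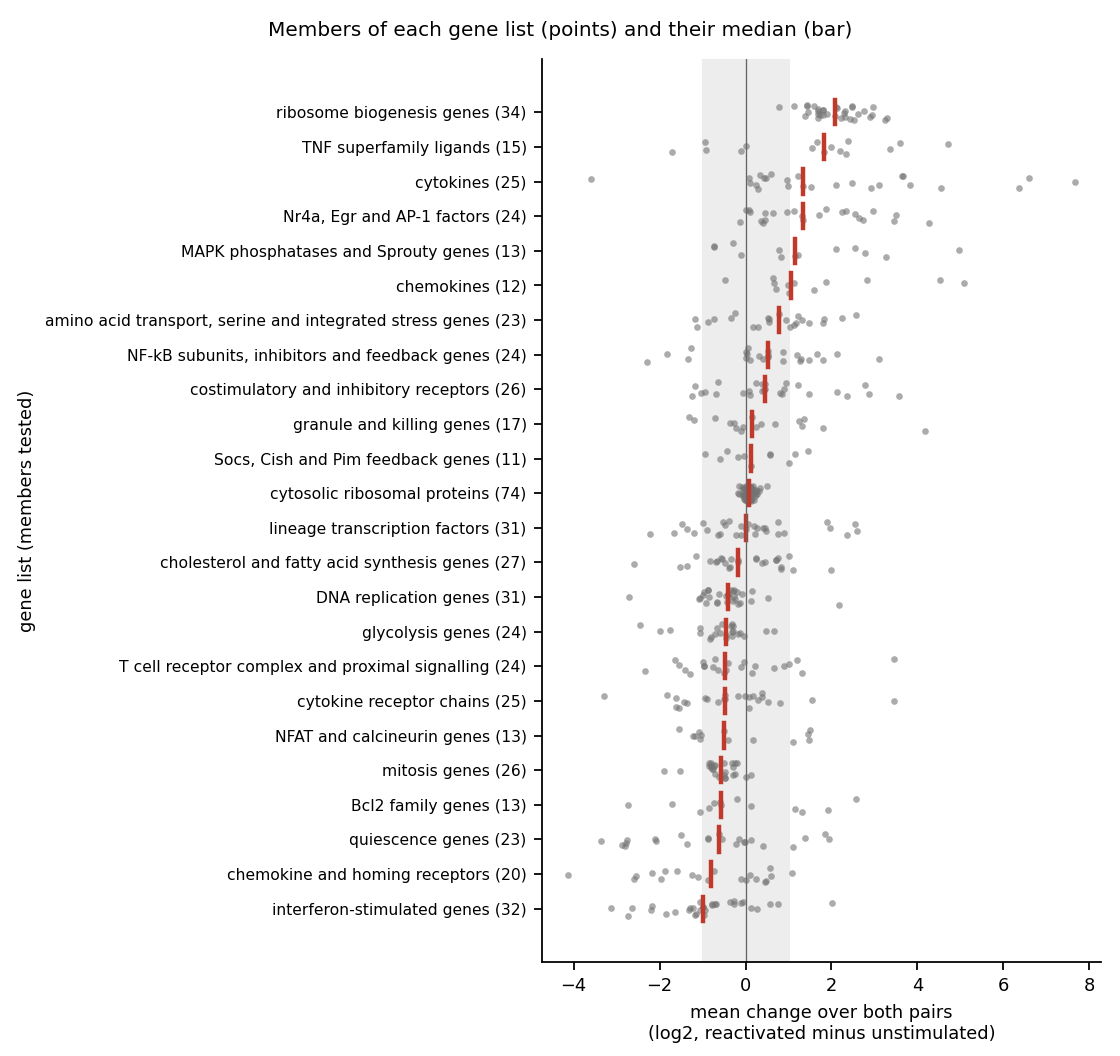
Mean change over both pairs (horizontal axis, log2) of every tested member of 24 gene lists (vertical axis, number tested in brackets), 1 point a gene, with a red bar at the list's median and grey shading within 2-fold. By their median ratios, ribosome biogenesis genes lie furthest to the right and interferon-stimulated genes furthest to the left, and cytosolic ribosomal proteins cluster near 0. By Cy3 alone, which is not drawn, the medians of chemokines at 6 and 24 hr (2.60 and 2.61) were above those of ribosome biogenesis genes (2.16 and 2.13).

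The study mapped super-enhancers of T-bet in mouse Th1 cells and listed the nearest genes, from data other than these arrays. Of the 357 of 472 such genes tested, 55 were past 2-fold upward in both pairs and 43 downward. Those shares of the list were 15.4% and 12.05%, where 6.82% and 7.18% of all genes were past 2-fold. The median change of the list was 0.02 at 6 hr and 0.09 at 24 hr, near that of all genes, and at 6 hr its sign turned with the centring (-0.11 to 0.30). Of 11889 probes tested that had no gene name, 336 were past 2-fold upward in both pairs (2.83%) and 269 downward (2.26%).

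For the brightest genes the reference channel moved too, and Cy3 alone gave another size. Of the 100 genes brightest in reactivated cells, 6 were past 2-fold upward in both pairs by ratio and 8 by Cy3, and for 6 of them at 6 hr and 7 at 24 hr the naive Cy5 signal rose by at least 2-fold. Over all tested genes the Cy5 signal rose by at least 2-fold in 30 at 6 hr and 53 at 24 hr, and the Cy3 signal rose by at least 2-fold in every one of them. The Cy5 signal fell by at least 2-fold in 7 and 17 genes, and in 6 and 10 of these the Cy3 signal fell by at least 2-fold as well. Ifng had log2 Cy3 levels of 14.08 and 13.96 before and 19.38 and 19.14 after, a change of 5.30 and 5.18, while Cy5 changed by 3.86 and 3.93. Ccl3 changed by 8.40 and 7.32 in Cy3 and by 6.29 and 6.26 in Cy5, and its ratio by 2.11 and 1.06. Ccl1, a CCR8 ligand, changed by 8.39 and 7.81 in Cy3 and by 7.18 and 7.66 in Cy5. Its ratio changed by 1.20 and 0.14 and did not pass the test (adjusted p = 0.074, limma). Ccl4, Il3 and Il2 had Cy5 changes of 2.30 to 4.75, and the changes of their ratios were below those of Cy3 as well. By Cy3 alone Ccl4 changed by 7.64 and 7.08, Bcl2a1d by 3.45 and 4.26, Cd160 by 2.79 and 4.73 and Pim3 by 1.52 and 3.10. Tnfrsf4 (OX40) was past 2-fold upward in both pairs by Cy3, at 1.46 and 2.94, but not by ratio, at 0.81 and 1.61. Srgn, the granule proteoglycan, changed in Cy5 by 0.12 and 0.18, and its ratio (1.42 and 2.18) was close to Cy3 (1.54 and 2.36). What raised the Cy5 signal was not tested.

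**Figure D4:**
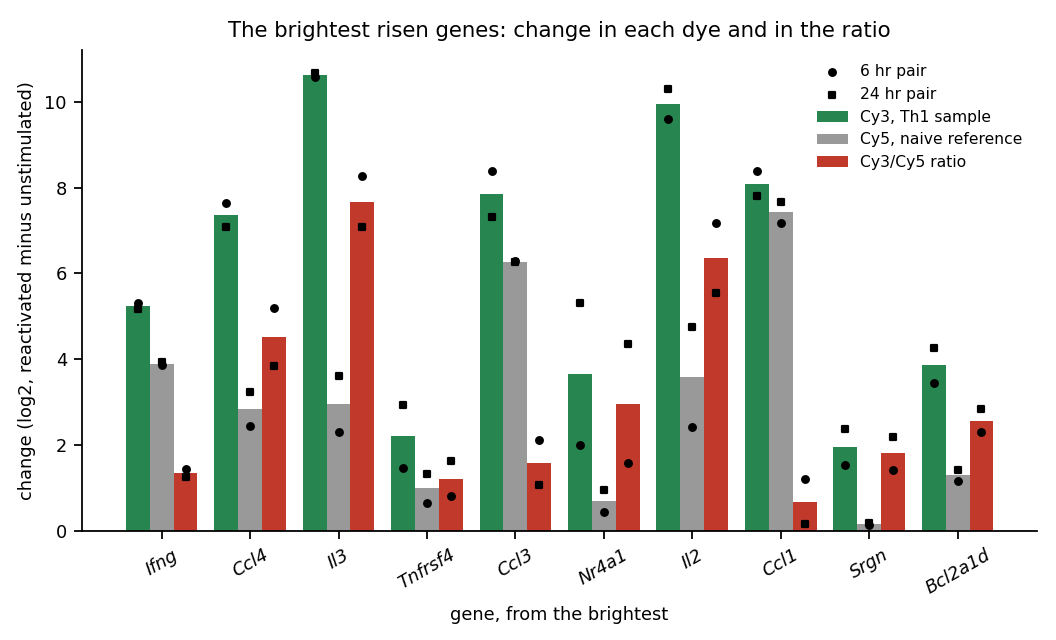
Change on reactivation (vertical axis, log2) of the 10 brightest genes past 2-fold upward in both pairs by either measure, ordered from the brightest. Bars are the mean of both pairs for Cy3 (green), the naive Cy5 reference (grey) and their ratio (red), with a dot for the 6 hr and a square for the 24 hr pair. For Ccl1 the grey bar nearly equals the green one, and for Srgn it is close to 0.

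Genes whose change differed by at least 2-fold between the pairs were few. The change was at least 2-fold higher at 24 hr than at 6 hr for 152 genes (1.21%) and at least 2-fold lower for 110 (0.873%). The balance turned with the scaling, from 284 and 42 with median centring to 77 and 282 with spike-in centring. The unstimulated arrays differed more than the reactivated ones in 53.3% of the 152 and in 59.1% of the 110, near the 58.5% of all genes. The Th1 pairs with 500 nM JQ1, a BET bromodomain inhibitor, lay on the same slides and share no array with the DMSO pairs. There the difference had the same sign for 90.1% of the 152 and 88.2% of the 110, beside 52.6% and 47.4% of all genes with a difference of that sign. In limma's model over the 8 DMSO and 500 nM JQ1 arrays, the time by reactivation term was higher at 24 hr for 330 of 12968 genes (2.54%) and lower for 269 (2.07%), and these included 115 of the 152 and 81 of the 110, which were chosen on arrays that the model also holds. The 500 nM JQ1 array of reactivated cells at 6 hr stood apart in its spike-in RNA (0.76 after loess, against -0.27 to -0.41 on the DMSO arrays), and with either spike-in scaling 1 gene was called higher and none lower. At an unadjusted p below 0.05 the term held 95 genes with spike-in centring and 226 with the spike-in shift, against 2231 with loess.

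Of all genes 1.21% had a change at least 2-fold higher at 24 hr and 0.873% a lower one, and 2.54% were called higher in the 8-array model. Of 24 Nr4a, Egr and AP-1 genes, 10 had a change at least 2-fold higher at 24 hr and none lower, and 12 were called higher in that model. Their unstimulated level at 24 hr minus that at 6 hr had a median of -0.66, against 0.01 over all genes, and 9 of them were at least 2-fold lower at 24 hr, as were 115 of the 12599 genes. Nr4a1 (Nur77), a reporter of receptor signalling, stood at 2.26 in unstimulated cells at 6 hr and at -0.22 at 24 hr, and at 3.83 and 4.14 in reactivated cells. Without stimulation it also stood at 2.28 with 50 nM JQ1 and 2.01 with 500 nM JQ1 at 6 hr, and at -1.80 with 500 nM JQ1 at 24 hr. Egr1 stood in the same order of arrays at 0.44, 1.22 and 1.54 at 6 hr and at -1.54 and -1.91 at 24 hr, and Fosl2 at 4.44, 4.38 and 3.64 and at 2.62 and 1.17. Dusp4, an ERK phosphatase, stood at 3.24, 2.59 and 1.86 and at 0.98 and 0.39. Over the Th1 arrays with DMSO or JQ1, all 3 unstimulated 6 hr arrays, which share a slide, were above both unstimulated 24 hr arrays for these 4 genes, which were picked for their larger change at 24 hr, as for 15.3% of all genes. The unstimulated Th2 DMSO array of that slide stood lower, at -1.97 for Nr4a1, -2.53 for Egr1, 1.76 for Fosl2 and 0.69 for Dusp4. On the 5 reactivated arrays of the same treatments Nr4a1 lay between 3.68 and 4.14, Dusp4 between 5.27 and 5.84, Fosl2 between 3.31 and 4.39 and Egr1 between 1.67 and 3.30. The flavopiridol arrays were not used here.

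**Figure D5:**
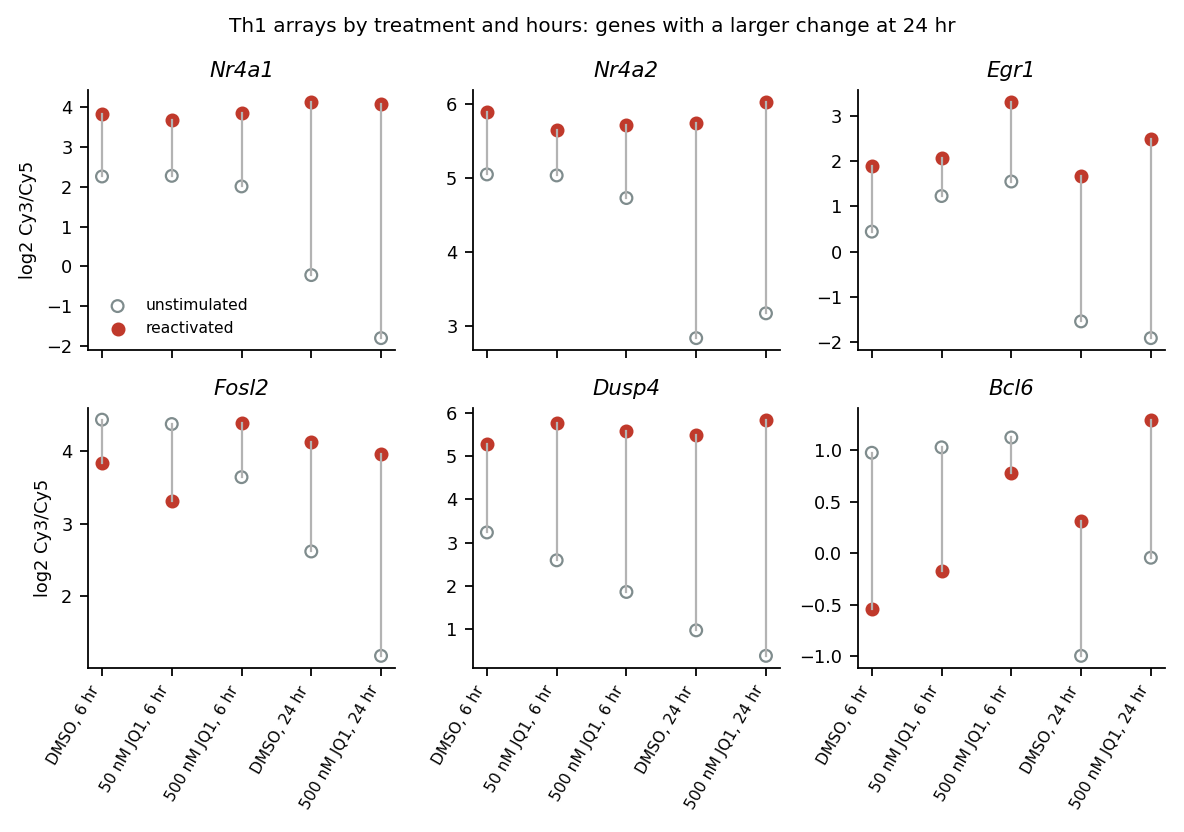
Log2 Cy3/Cy5 ratio (vertical axes, scaled per gene) of unstimulated (open) and reactivated (red) Th1 cells with DMSO or JQ1 for 6 genes with a higher signed change at 24 hr, by treatment and hours (horizontal axis), 1 array a point. Unstimulated Nr4a1 lies near 2 on the 3 arrays of 6 hr and below 0 on both arrays of 24 hr, and Bcl6 moves down at 6 hr and up at 24 hr.

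For Bcl6, Il21 and Rasgef1b the arrays of 6 and 24 hr differed in both states. Bcl6, a repressor that drives follicular helper cells, went from 0.98 to -0.54 at 6 hr and from -0.997 to 0.31 at 24 hr. With 500 nM JQ1 its change was -0.34 at 6 hr and 1.34 at 24 hr. Il21, the follicular helper cytokine, stood at 4.86 and 3.40 in unstimulated and at 7.15 and 8.44 in reactivated cells. Rasgef1b went from 2.58 to 3.82 at 6 hr and from 1.35 to 4.93 at 24 hr. Dusp6, Nr4a2 and Fos, of the same feedback and immediate-early groups, changed by 1.63 and 3.47, by 0.85 and 2.91 and by 0.43 and 2.21, and the NF-kB feedback gene Tnfaip3 by 0.59 and 2.39. Rel, an NF-kB subunit not well above background in unstimulated cells, was at least 1.34-fold and 3.04-fold higher. For 3 further genes at the top of this ranking the Cy5 signal moved more than Cy3 in the 24 hr pair. Vgll3, Shisa2 and Zfp598 changed by -0.04, -1.19 and 0.62 in Cy3 at 24 hr, while their Cy5 signal changed by -4.84, -5.06 and -1.84. With 500 nM JQ1 the ratio of Vgll3 changed by -0.11 at 6 hr and 0.16 at 24 hr, that of Shisa2 by -0.42 and -0.25 and that of Zfp598 by -0.20 and 0.32.

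Pde2a, which degrades cyclic nucleotides, went from -3.76 to -2.70 at 6 hr and from -2.22 to -4.72 at 24 hr, and with 500 nM JQ1 its change was 2.09 and -0.75. Mmp10, a matrix protease, went from -0.04 to 3.80 at 6 hr and from 0.00 to 0.75 at 24 hr, and was not well above background on the unstimulated arrays. It was at least 13.4-fold and 1.61-fold higher in reactivated cells. Cxcr6, a receptor of tissue-homing Th1 cells, stood at 4.26 and 4.30 in unstimulated cells and at 5.29 and 3.49 in reactivated cells, so its pairs differed in the reactivated arrays. With 500 nM JQ1 its change was 1.32 and -0.81. Adam19, Drc1, Endod1, Tubb3, Arhgef18 and Kbtbd11 had differences (24 hr minus 6 hr) between -1.69 and -2.49, and Maz, a zinc finger factor, had a difference of -1.87. Of the 10 genes named for the most negative difference, Maz alone was not called in the 8-array model (adjusted p = 0.086, limma). The 10 were chosen on arrays that the model also holds, so these calls are no separate check. This ranking passed over 1 gene of uncertain name. Among 12 chemokine genes 4 had a change at least 2-fold lower at 24 hr, and none higher, where 0.873% and 1.21% of all genes had. These were Ccl4, Xcl1, Ccl3 and Ccl1, of which Xcl1 was not called in the 8-array model (adjusted p = 0.12, limma). The Cy5 signal of these genes rose by 2.44 to 7.66. By Cy3 alone the difference was -1.08 for Ccl3, -0.55 for Ccl4, -0.58 for Ccl1 and 0.23 for Xcl1, so that only Ccl3 of the 4 remained past 2-fold and Xcl1 turned sign. Over the 12 genes the unstimulated ratios differed by a median of 0.39 and the reactivated ratios by -0.15 (24 hr minus 6 hr).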

How the data were processed

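RNA of Th1 cells (Cy3) and naive T cells (Cy5) was hybridised by the authors to 2-colour Agilent arrays. The deposited scanner files hold intensity values per spot from Agilent Feature Extraction 10.7.1.1 and, per the file headers, a log10 ratio of Cy5 to Cy3 after the software's own dye normalization. A value table with log2 ratios for 34710 probes, as deposited, served as an alternative. Median intensities were corrected with normexp (offset 50) and loess in limma 3.58.1 (R 4.3.3), and Cy3 levels were taken after Aquantile scaling. Of 55681 probes 26448 had a RefSeq gene, the brightest probe stood for each gene, and a gene was tested if Cy3 was well above background on at least 2 of 4 arrays. Limma models carried the pair as a block, or treatment, time, state and their pairwise terms over 8 arrays, with 1 residual degree of freedom. They were tested on simulated data. The named genes are the 10 most agreeing or differing in each direction, the 10 brightest, the 4 largest members of each list and members grouped by role; some genes that this rule names are not reported here. Members and lists were chosen with earlier results of these data known. Alternatives covered background, scaling, filter, probe, threshold and model.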

Additional observations from a re-analysis of the deposited data

Results flagged for a closer look

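For the genes named above, the change on reactivation was compared between 6 hr and 24 hr in limma's model over the DMSO and 500 nM JQ1 arrays. Those listed here passed at a Benjamini-Hochberg adjusted p below 0.05. Some of them had been named for a large difference between the DMSO pairs, on arrays that the model also holds. Each value is the change at 24 hr minus the change at 6 hr on the log2 scale, which the model estimates as 1 value averaged over both treatments, and each time lay on its own slide. Among immediate-early transcription factors the difference was 3.41 for Nr4a1, 1.96 for Nr4a2, 1.11 for Nr4a3, 2.20 for Egr1, 2.42 for Egr2, 1.93 for Fos and 2.08 for Fosl2. Other transcription factors and NF-kB genes had differences of 2.25 for Bcl6, 2.09 for Twist1, 1.43 for Rel, 1.96 for Nfkbid and 1.87 for Tnfaip3. Of the NFAT system and the quiescence factors the difference was 1.33 for Nfatc1, -0.93 for Nfatc2, 1.503 for Orai1, -0.99 for Klf2, -0.83 for Tcf7 and -0.99 for Tsc22d3. Among cytokine genes the difference was -0.90 for Il2, 1.29 for Il4, 0.73 for Il13, -0.78 for Il16, 0.79 for Il17f, 2.76 for Il21 and 0.88 for Il31. Probes of Il4 and Il17f were not well above background on either unstimulated DMSO array, and those of Il13 and Il31 not on the 6 hr one. The differences of these cytokines are therefore not exact. Among chemokine genes the difference was -0.86 for Ccl1, -1.09 for Ccl3, -0.96 for Ccl4 and -0.88 for Ccl5. The tumour necrosis factor ligands and a receptor had differences of 1.30 for Cd40lg, 1.52 for Fasl, 1.59 for Ltb, 1.09 for Tnfsf11 and 0.77 for Tnfrsf4. Among surface receptors the difference was -0.78 for Cd28, 1.58 for Cd69, 1.35 for Cd160, 1.47 for Ctla4, 0.87 for Pdcd1 and 1.06 for Slamf1. Further receptors had differences of -1.98 for Cxcr6, 0.89 for Il1rl1, -1.32 for Il7r, 1.11 for Mst1r, -1.04 for S1pr1 and -0.84 for Selplg. Signalling and feedback genes had differences of 2.10 for Dusp4, 1.56 for Dusp6, 1.89 for Spry1, -1.10 for Cish, 0.96 for Pim3, -1.07 for Rasgrp1 and 0.85 for Ubash3b. Granule, survival and interferon-stimulated genes had differences of 0.96 for Serpinb6b, 1.07 for Srgn, 0.69 for Bcl2a1d, -0.79 for Gbp4 and 1.13 for Ifih1. Cell cycle and kinase genes had differences of -1.18 for Ccnd3, -0.81 for Nusap1 and -0.77 for Dapk2. The remaining genes with a larger change at 24 hr had differences of 1.71 for Rasgef1b, 2.35 for Shisa2, 2.48 for Vgll3 and 1.37 for Zfp598. Those of Shisa2, Vgll3 and Zfp598 came mostly from the DMSO pairs, where the differences were 4.52, 4.68 and 2.21, while with JQ1 their changes at both times lay between -0.42 and 0.32. Genes with a lower change at 24 hr had differences of -1.46 for Adam19, -1.23 for Arhgef18, -2.23 for Drc1, -1.45 for Endod1, -2.17 for Kbtbd11 and -1.55 for Tubb3. Further genes with a lower change at 24 hr had differences of -2.64 for Mmp10, -3.20 for Pde2a and -1.10 for Ripor2. Probes of Mmp10, Mst1r, Cd40lg and Rel were not well above background on either unstimulated DMSO array. Their changes are bounds, so their differences are not exact. With either spike-in scaling 1 gene in all passed this test, and with the scanner software's own log ratio none did. In the DMSO pairs, 3 of these 74 genes had a difference of the opposite sign by Cy3 alone: 0.69 for Il2, 0.26 for Ccl5 and -0.44 for Shisa2. The Cy5 reference of Il2 changed by 2.43 at 6 hr and 4.75 at 24 hr, that of Ccl5 by 1.73 and 2.66 and that of Shisa2 by -0.094 and -5.06. By Cy3 the difference was -0.58 for Ccl1, -0.55 for Ccl4, -1.08 for Ccl3, 0.15 for Vgll3 and 0.28 for Zfp598.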

How the results depend on the processing

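Of 104 recomputed counts 73 stayed within 1.5 times their value, and of 1978 recomputed gene changes 1889 kept their sign and their side of the threshold, 33 passed only in the alternative, 40 no longer passed and 16 turned sign. Without background correction 191 genes had a change at least 2-fold lower at 24 hr. Median centring without loess gave 284 genes with a change at least 2-fold higher at 24 hr and 42 lower, and the time by reactivation test called 1522 and 89. Spike-in centring without loess gave 560 genes lower in both pairs, 2058 called lower by limma, and 77 and 282 with a change at least 2-fold higher or lower at 24 hr. With it and with the spike-in shift after loess the time test called 1 gene higher and 0 lower, with 95 and 226 genes at an unadjusted p below 0.05. The scanner software's own log ratio gave 1453 genes lower in both pairs, and 563 and 654 with a change at least 2-fold higher or lower at 24 hr, while the time test called 0 and 0 (limma, 1404 at an unadjusted p below 0.05). The time test called 176 and 86 in the deposited table, 148 and 90 without a filter, and 161 lower with the mean over probes. A 1.5-fold threshold gave 1663 genes higher and 2042 lower in both pairs, and 616 and 875 with a higher or lower change at 24 hr, and a 4-fold threshold gave 237, 120, 13 and 4. The cause of these shifts was not tested, except that a threshold moves its own counts. Over all genes the median change at 6 hr was -0.18 with median centring and 0.23 with spike-in centring, against -0.04.

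The mean change of Vgll3 turned to -0.28 in the deposited table and -0.11 by Cy3 alone, and that of Shisa2 to -1.36 and -0.97. With spike-in centring and the spike-in shift Bcl6 turned to 0.075 and 0.0071, Adam19 to 0.061 and 0.038 and Gzma to 0.089 and 0.016, and with the first Jund turned to 0.041. Batf turned to -0.0027 without background correction, -0.0038 with median centring, -0.0059 by the software's ratio and -0.0071 by Cy3. Rpl21 turned to -0.12 with the first of its probes by name. The labels give no shared replicate numbers. Both arrays of a time entered the main model as a block, and without this block limma called 2113 genes higher and 2637 lower. Signal over background limits the low genes: a probe below background has only a bound.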

Other observations

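Of 74 ribosomal protein genes tested, 73 had a higher signed change at 24 hr than at 6 hr, beside 44.6% of all genes tested. None differed by 2-fold or was called in the time by reactivation test. The median of their level at 24 hr minus that at 6 hr was -0.48 in unstimulated and -0.19 in reactivated cells, against 0.01 and -0.04 over all genes. Each time lay on its own slide, so time and slide cannot be told apart here. The mitosis list went the other way, with 4 of 26 members having a larger change at 24 hr.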
